A study of Mus musculus with 32 samples.

Results

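The cytosolic ribosome of the mouse is built from ribosomal RNA and about as many proteins as there are genes described here, shared between a large subunit, which joins amino acids, and a small subunit, which reads the messenger RNA. The genes were taken by symbol as protein-coding genes named Rpl or Rps and a number, with or without a final a, x or y, together with Rplp0, Rplp1, Rplp2 and Rpsa. Rpl3, its muscle paralogue Rpl3l, the ribosomal S6 kinases and pseudogenes were left out, and a mean of at least 1 CPM (counts scaled by the size of the library) over the 32 libraries was required. This gave 73 of the 55487 gene identifiers in the count table, 44 of the large and 29 of the small subunit. Before the level requirement 75 symbols matched. Rpl13a, at a mean of 1.96 CPM, stood just inside it, and Rps10 at 0.658 CPM and Rpl24 at 0.259 CPM stood just outside. In each, another gene on the same strand covers part of the exon bases. The shares are 29.4% for Rpl13a (Gm45713), 20.6% for Rps10 (RPS10-NUDT3) and 47.0% for Rpl24 (Gm28037). Whether reads were lost to these overlaps was not tested, so the low counts need not be low expression. All 73 passed the filter on low counts, and 72 had a mean of at least 10 CPM.

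RNA was sequenced from the gastrocnemius, the large calf muscle, of young male mice killed 7 or 28 days after surgery. Surgery was a sham operation or a complete spinal cord injury (SCI), which paralyses the muscle. Sham mice received vehicle. Injured mice received either vehicle or boldine, a plant alkaloid described as an inhibitor of the open channels that connexins and pannexins form in the cell membrane. Each time has 4 libraries from sham mice, 6 from injured mice on vehicle (SCI vehicle) and 6 from injured mice on boldine (SCI boldine). The labels give neither a strain nor an age in weeks, and they do not say whether animals shared a cage or a day of surgery. The comparisons ask how injury changed the transcripts at each time, whether the change differed between the times, and whether boldine altered it.

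Ribosomal protein genes are transcribed by RNA polymerase II at high rates in growing cells, and their messenger RNAs start with an uninterrupted run of pyrimidines, the 5′ terminal oligopyrimidine (TOP) tract. Through this tract Larp1 and the kinase mTORC1 set how many of them are translated. In skeletal muscle, ribosome content is known to limit protein synthesis during growth and to fall with long disuse.

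Start regions of 54 of the 73 genes were found in the RefSeq promoter table of the build GRCm38.p6. The longest run of C or T that reached within 10 bases of the first listed start was at least 8 bases long in 24 of these 54 genes (44.44%), against 13.51% of the 27025 genes of the table. Among the large subunit genes 15 of 33 had such a run (45.45%), and among the small subunit genes 9 of 21 (42.86%). The median run was 6.5 bases, against 4 over the whole table. The motif CCGGAAG, the core bound by ETS factors, was found on either strand within 250 bases before and 50 after the start in 21 of the 54 (38.89%, against 9.121% of all). The motif AAGATGGC, the core of the YY1 motif, was found in 4 (7.407%, against 2.879%). The listed start can differ from the start used in muscle, so a short run says only that the letters are not at the listed position. The sequences below show 30 bases before the listed start and 20 from it, with the longest run in capitals. They are the genes whose values the results turn on, the first 4 with a run of at least 8 bases and the last 4 with a shorter one.
Rpl38: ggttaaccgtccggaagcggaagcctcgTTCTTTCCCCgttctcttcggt
Rplp2: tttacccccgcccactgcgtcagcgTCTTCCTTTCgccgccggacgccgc
Rps25: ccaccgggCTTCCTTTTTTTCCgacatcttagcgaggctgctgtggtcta
Rps6: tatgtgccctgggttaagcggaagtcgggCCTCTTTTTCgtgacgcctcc
Rpl22: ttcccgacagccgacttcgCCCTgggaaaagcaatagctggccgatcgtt
Rplp0: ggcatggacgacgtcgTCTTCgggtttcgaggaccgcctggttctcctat
Rps2: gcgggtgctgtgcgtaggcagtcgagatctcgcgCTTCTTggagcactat
Rpl41: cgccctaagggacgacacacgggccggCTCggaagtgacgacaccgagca
In GRCm38.p6 these lie at chr11:114668550-114668599 on the plus strand (Rpl38), chr7:141447621-141447670 plus (Rplp2), chr9:44407684-44407733 plus (Rps25) and chr4:86857348-86857397 minus (Rps6). The others lie at chr4:152325696-152325745 plus (Rpl22), chr5:115559437-115559486 plus (Rplp0), chr17:24720033-24720082 plus (Rps2) and chr10:128549149-128549198 minus (Rpl41). Each spans the end of the promoter and the first bases of the transcript. The run started 2 bases before the listed start in Rpl38, 5 before it in Rplp2 and 1 before it in Rps6. In Rps25 it started 22 bases before the listed start and ended upstream of it.

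The genes are spread over the genome, with 14 on chromosome 7, 7 on chromosome 11 and 4 on the X chromosome. Most have near-identical copies, and this limits what a read count can say about each. Of the 73 genes, 72 shared at least 1 window of 50 bases with another annotated gene. The median share of windows found in no other gene was 46.7%, and the lowest was 1.35% for Rps27. Exons of other genes covered over 10% of the exon bases of 13 members. Examples are Rpl23a (62.3%, the largest part under Tlcd1) and Rps25 (24.8%, the largest part under Trappc4). The sources used here do not say how reads with several places were counted, and the library kit does not keep the strand, so these genes are uncertain one by one. Results are also given for the 28 genes with at least 50% of windows of their own and at most 10% of exon bases shared.

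Library totals ran from 9935424 to 14132960 counts. At 28 days the 4 sham libraries and SCI vehicle libraries 1 to 4 stood apart from all 24 others in Hipk2 (4.98 to 21.8 CPM, against 47.0 to 119) and A630019I02Rik (0.954 to 4.64 CPM, against 15.3 to 530.1), a split that no label names. They hold 4 of 6 SCI vehicle and 0 of 6 SCI boldine libraries at 28 days, so the 28-day counts are also given from a model with a term for these sets of libraries. SCI boldine library 6 at 28 days is boldine by its title and treatment label, but its code in the count table carries the letter of the SCI vehicle libraries. The labels were followed, and the 28-day boldine counts are also given without it. Fibre transcripts were lower at 7 days: the summed level of 9 markers of muscle fibres was 199028 to 261170 CPM in sham, 82170 to 172293 in SCI vehicle and 87199 to 147174 in SCI boldine libraries. At 28 days the sum was 201131 to 223936 CPM in sham and 252494 to 287197 in SCI vehicle libraries. The whole set of ribosomal protein genes took 0.967 to 1.01% of all counts in sham, 1.56 to 2.37% in SCI vehicle and 1.64 to 2.34% in SCI boldine libraries at 7 days. At 28 days the same share was 1.03 to 1.10%, 1.07 to 1.21% and 1.06 to 1.21%. The part that the lower fibre transcripts have in these shares was not tested. In a bulk sample, fewer cells of a type and less RNA per cell cannot be told apart.

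At 7 days after injury, nearly the whole set of ribosomal protein genes was higher in paralysed muscle. Of 73 genes, 70 rose in SCI vehicle against sham muscle and none fell (edgeR's quasi-likelihood test with Benjamini-Hochberg adjustment over 14955 genes, adjusted p under 0.05), where 21.5% of all genes tested were called higher and 23.1% lower. The rise covered both subunits, with 42 of 44 large and 28 of 29 small subunit genes. The median log2 fold change was 0.60, or 1.52-fold, against -0.02 over all genes, and 39 genes were at least 1.5-fold higher. In 63 genes every SCI vehicle library lay above every sham library, which held for 14.0% of all genes. Of the 28 genes with few shared windows all rose, with a median of 0.59. Rps2, Rpl41 and Rpl13a were the ones that did not pass the test. With library totals as the scaling the median was 1.00, which is 0.64 above the median of all genes.

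**Figure D1:**
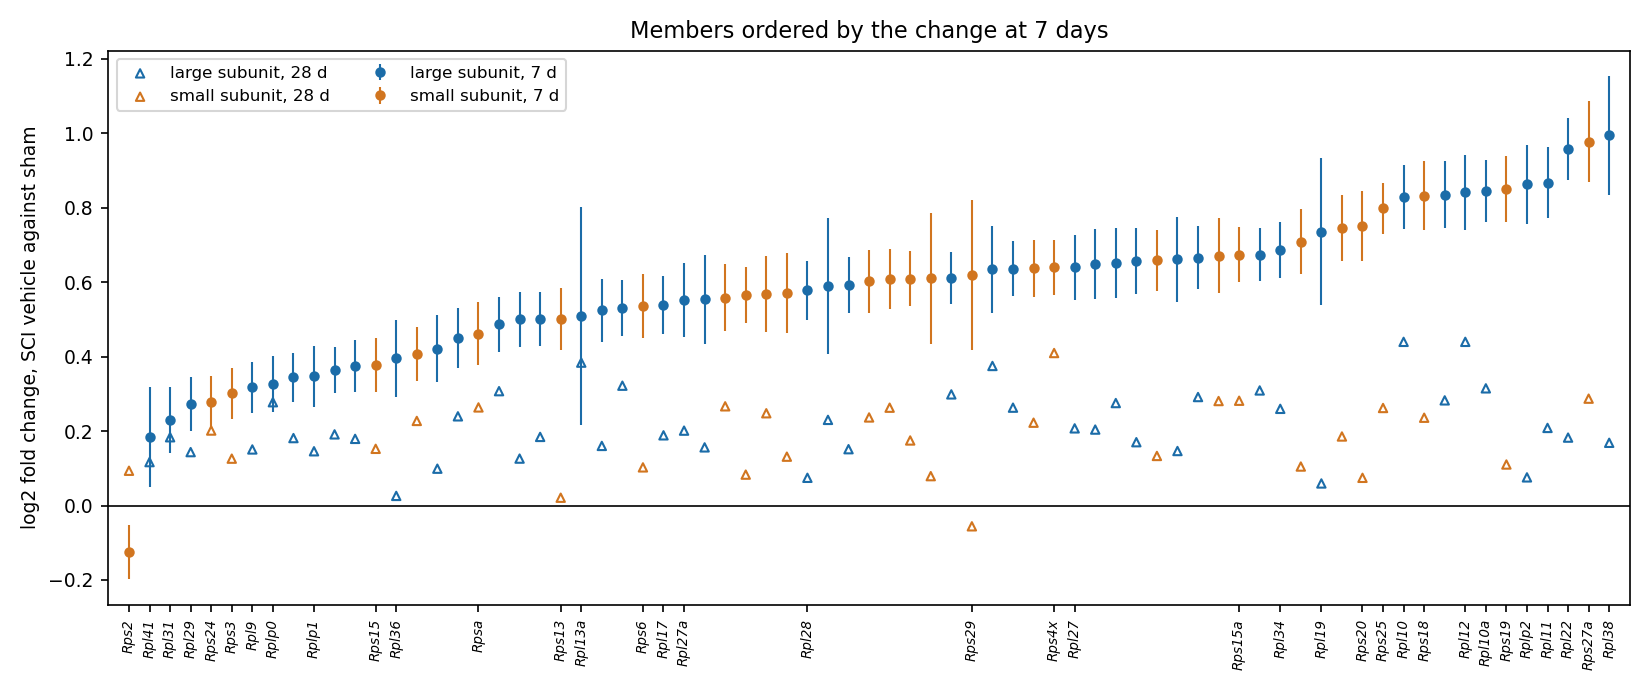
Log2 fold change of SCI vehicle against sham for each of the 73 genes, ordered by the value at 7 days, which is shown as a filled circle with its SE. Open triangles are the values at 28 days, blue marks large and orange small subunit genes, and the genes described in the text are labelled. At 7 days the values run from -0.13 (Rps2) to 0.99 (Rpl38), and 72 genes lie above 0 at each time.

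In the large subunit, the highest fold change was that of Rpl38, a protein that in mouse embryos is needed for the translation of Hox messenger RNAs (chromosome 11, 114668524 to 114672331 in mm10). Its levels were 41.6, 33.8, 31.2 and 24.7 CPM in the sham libraries and 47.1, 63.4 and 82.1 CPM as the lowest, median and highest of 6 SCI vehicle libraries. The groups did not overlap, and the log2 fold change was 0.99 ± 0.16 (SE, adjusted p = 5.4e-06). Rpl22, which mice can lose without losing general translation but which their T cells need, had 91.4, 98.4, 97.7 and 91.2 CPM in sham libraries. SCI vehicle libraries had 173, 177 and 211 CPM, all above sham, and the change was 0.96 ± 0.08 (adjusted p = 9.5e-11). Few of its windows are shared, with 94.8% its own. Rpl11, which with Rpl5 and 5S ribosomal RNA can bind the p53 regulator Mdm2, had 107, 123, 104 and 97.2 CPM in sham and 166, 192 and 235 CPM in SCI vehicle libraries. It rose by 0.87 ± 0.10 (adjusted p = 8.5e-09), again with no overlap. Rpl10a, a protein of the stalk at which used transfer RNAs leave, had 118, 117, 117 and 112 CPM in sham and 185, 202 and 259.7 CPM in SCI vehicle libraries. Its rise was 0.85 ± 0.08 (adjusted p = 8.9e-10), and its libraries were also apart.

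The smallest fold changes of the large subunit were those of Rpl41, Rpl31, Rpl29 and Rpl9. Rpl41, the shortest protein of the ribosome, had 93.1, 92.5, 69.3 and 60.4 CPM in sham and 75.3, 90.5 and 107 CPM in SCI vehicle libraries. The ranges lay largely over each other and the change of 0.18 ± 0.13 did not pass (adjusted p = 0.28). Rpl31, a protein at the exit of the peptide tunnel, had 97.7, 105, 96.0 and 90.0 CPM in sham and 102, 110.5 and 130.1 CPM in SCI vehicle libraries, which overlapped. It rose by 0.23 ± 0.09 (adjusted p = 0.033), and the call was lost without the filter on low counts (0.0609), without SCI vehicle library 2 (0.0662) or without sham library 1, 3 or 4 (adjusted p from 0.0623 to 0.114). Rpl29, a basic protein that can bind heparin, rose by 0.27 ± 0.07 from 165 ± 11.3 to 199 ± 16.5 CPM (mean ± SD, n = 4 and 6, adjusted p = 0.0028). Rpl9 rose by 0.32 ± 0.07 from 158 ± 9.74 to 197 ± 14.3 CPM (adjusted p = 0.00027). In both, all SCI vehicle libraries lay above all sham libraries. Rpl13a, near the lower limit of the set, had 1.40 ± 0.392 and 2.01 ± 0.721 CPM with overlapping libraries (log2 fold change 0.51 ± 0.29, adjusted p = 0.16). Exons of other genes covered 35.4% of its exon bases, and Gm45713 on the same strand covered 29.4%.

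The 3 proteins of the P stalk, which draws the elongation factors to the large subunit, differed in size of change. Rplp0, its base, had 533, 536, 533 and 516 CPM in sham and 619, 656 and 756 CPM in SCI vehicle libraries, and rose by 0.33 ± 0.08 (adjusted p = 0.00065). Rplp1 had 222, 227, 224 and 199 CPM in sham and 249.9, 272 and 320.4 CPM in SCI vehicle libraries, and rose by 0.35 ± 0.08 (adjusted p = 0.00084). Rplp2, the partner of Rplp1 in the stalk's dimers, had 86.4, 78.7, 81.2 and 71.0 CPM in sham and 116, 141 and 189 CPM in SCI vehicle libraries, and rose by 0.86 ± 0.11 (adjusted p = 6e-08). For none of the 3 did the groups overlap. Within a library, the log2 ratio of Rplp2 to Rplp0 was -2.86 to -2.62 in sham, -2.42 to -2.00 in SCI vehicle and -2.33 to -1.97 in SCI boldine libraries at 7 days. At 28 days it was -2.58 to -2.34 in sham, -2.83 to -2.57 in SCI vehicle and -2.93 to -2.62 in SCI boldine libraries. The order of the group means of sham and SCI vehicle was then the opposite, with ranges that overlapped slightly. The sham mean itself was -2.74 at 7 days and -2.48 at 28 days. The ratio was chosen after its values were seen and was not tested.

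**Figure D2:**
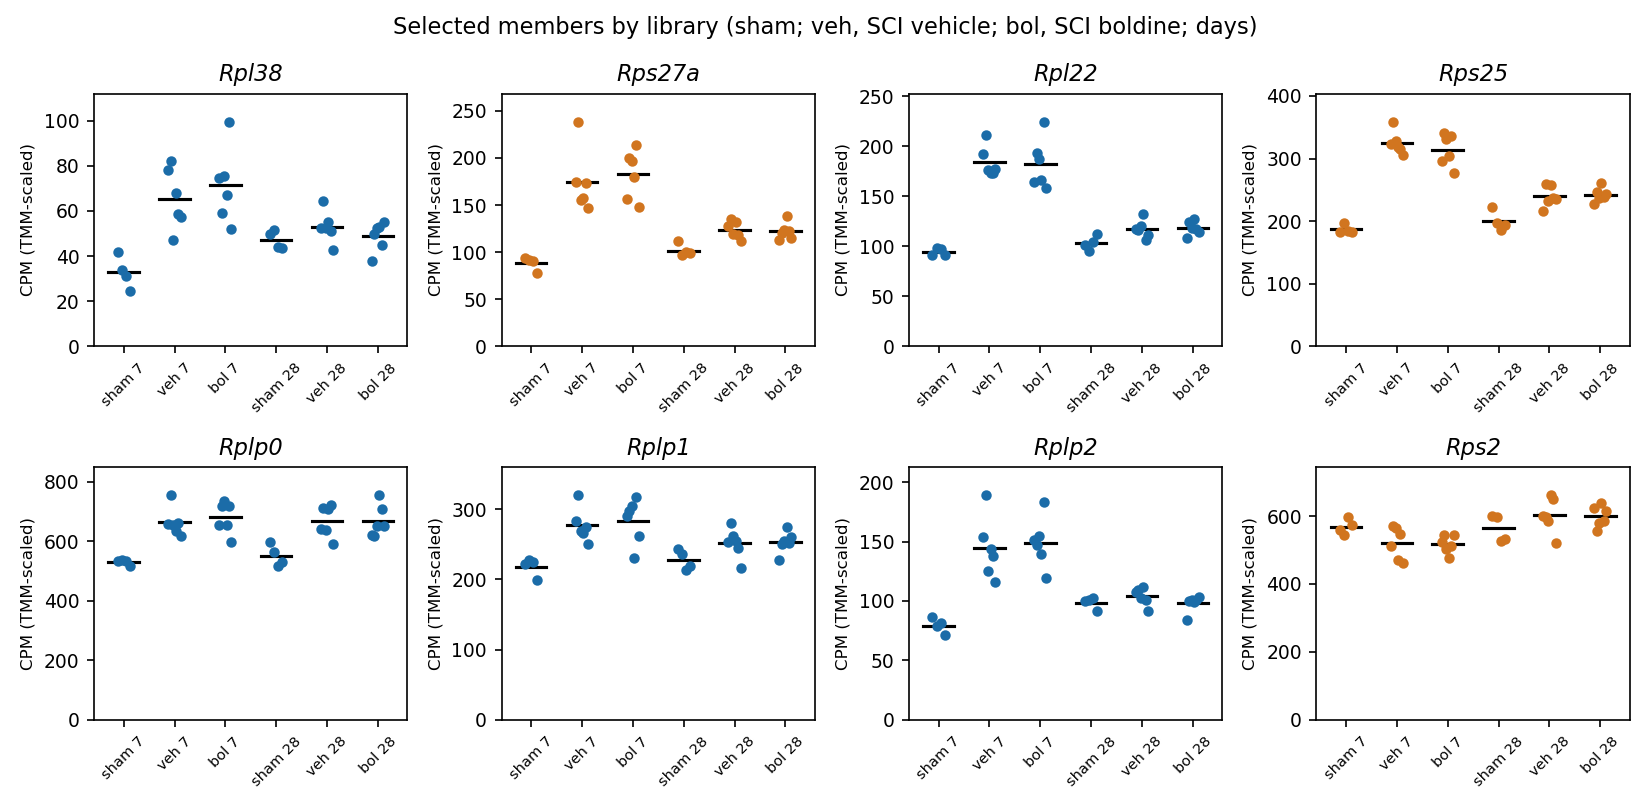
CPM after scaling by library for 8 of the genes in all 32 libraries, by group (sham, SCI vehicle and SCI boldine at 7 and 28 days). Points are libraries, bars are group means, blue marks large and orange small subunit genes, and each axis starts at 0. Rpl22 runs from 91.2 to 98.4 CPM in sham and from 173 to 211 CPM in SCI vehicle libraries at 7 days, while Rps2 runs from 545 to 596 CPM in sham and from 461 to 571 CPM in SCI vehicle libraries.

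In the small subunit, Rps27a, made as a fusion with ubiquitin that is cut to give both proteins, had the highest fold change. It had 93.8, 91.5, 90.8 and 78.1 CPM in sham and 147, 166 and 239 CPM in SCI vehicle libraries, with no overlap, and rose by 0.98 ± 0.11 (adjusted p = 9.6e-09). Only 28.0% of its windows are its own, and the gene sharing the most with it is Gm8430. Rps19, the protein most often mutated in human Diamond-Blackfan anaemia, had 70.4, 72.5, 68.9 and 68.6 CPM in sham and 109, 125 and 153 CPM in SCI vehicle libraries. It rose by 0.85 ± 0.09 (adjusted p = 3e-09), and the groups were apart. Rps18 had 146, 146, 144 and 137 CPM in sham and 228, 248 and 309 CPM in SCI vehicle libraries, again apart, and rose by 0.83 ± 0.09 (adjusted p = 8.5e-09). Rps25, known for its part in starting translation at internal ribosome entry sites, had 182, 197, 185 and 183 CPM in sham and 305, 321 and 359 CPM in SCI vehicle libraries. It rose by 0.80 ± 0.07 (adjusted p = 7.6e-11). Every one of its SCI vehicle libraries was above every sham library.

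Rps2, a protein at the messenger RNA entry of the small subunit, was the one gene of the 73 with a negative fold change at 7 days. It had 560.5, 545, 596 and 572 CPM in sham and 461, 528 and 571 CPM in SCI vehicle libraries, which overlapped. The log2 fold change was -0.13 ± 0.07, with a 95% interval from -0.27 to 0.02 and an adjusted p of 0.16. With library totals in place of TMM factors the value was 0.27, which passed (adjusted p = 0.00978). That scaling moved the median of all genes to 0.37, and relative to this median Rps2 was at -0.10 under both scalings. Rps2 is also among the genes with many copies, with 21.0% of its windows its own and 71 other genes sharing at least 1. The next smallest changes of the small subunit were calls. Rps24 rose by 0.28 ± 0.07 from 155 ± 12.7 to 188 ± 14.3 CPM (adjusted p = 0.0014). Rps3, which lines the messenger RNA entry, rose by 0.30 ± 0.07 from 221 ± 12.8 to 273 ± 18.7 CPM (adjusted p = 0.00049). Rps15 rose by 0.38 ± 0.07 from 179.9 ± 10.2 to 234 ± 20.7 CPM (adjusted p = 6.7e-05). In none of these 3 did the groups overlap. Rps6, the substrate of the S6 kinases, rose by 0.54 ± 0.09 from 126 ± 4.30 to 183 ± 25.3 CPM (adjusted p = 4.9e-06), and Rpsa, also known as the laminin receptor precursor, rose by 0.46 ± 0.08 from 328 ± 20.8 to 452 ± 51.0 CPM (adjusted p = 3.7e-05). Both had all SCI vehicle libraries above all sham libraries.

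Properties of the genes were set beside the size of the 7-day change. Across the 73 genes, which share libraries and are not independent, Pearson's r of the 7-day fold change was -0.01 with the share of unique windows, -0.02 with transcript length and -0.28 with the sham level (Spearman's rho -0.34), where level also entered the choice of genes. The level was taken from the same 7-day sham libraries that the fold change is set against. Their noise alone pushes this correlation below 0. Genes with a pyrimidine run of at least 8 bases that reached within 10 bases of the listed start had a median of 0.61 (24 genes). Those with a shorter run had 0.64 (30 genes). The run need not cover the start, as in Rps25. Within groups the genes varied together: after group means were taken out, the median correlation of a gene with the mean of the others over 32 libraries was 0.81, and 62 were above 0.7. The lowest were Rps2 (0.32) and Rpl13a (0.33), and the highest was Rpl23 (0.95). These libraries share their scaling and total RNA, so the correlations are descriptions. The same values were not computed for other genes, so whether varying together is particular to this set was not tested. Counts on 294 annotated ribosomal protein pseudogenes also differed by group, at a sum of 24.7 to 27.2 CPM in sham, 38.6 to 61.9 in SCI vehicle and 44.5 to 93.5 in SCI boldine libraries at 7 days. Whether these are reads from the parent genes was not tested.

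**Figure D3:**
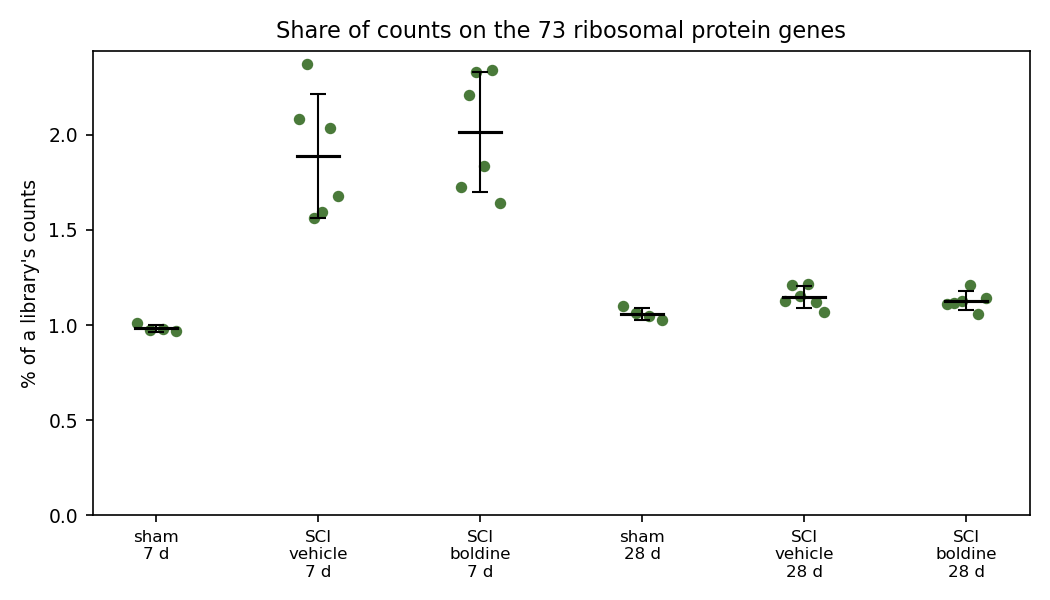
Percent of a library's counts on the 73 ribosomal protein genes, by group, with points for libraries and bars for the mean and SD. The 7-day sham libraries lie between 0.967 and 1.01%, and the 7-day SCI libraries between 1.56 and 2.37%, with vehicle and boldine libraries over the same range.

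At 28 days after injury the set was still higher than in sham muscle, but less so. Of 73 genes, 20 rose in SCI vehicle muscle and none fell (edgeR), where 4.05% of all genes tested were called higher and 4.88% lower. The 20 were 14 large and 6 small subunit genes. All of them had also risen at 7 days, but so had 70 of the 73, so this overlap was close to fixed. The median log2 fold change was 0.19, or 1.14-fold, against 0.00 over all genes, and 72 of 73 values were above 0. In 29 genes all SCI vehicle libraries lay above all sham libraries, against 5.36% of all genes. Among the 28 genes with few shared windows 8 rose, and their median was also 0.19. The count rested on single libraries: it was 8 without sham library 3, 9 without sham library 4, 13 without sham library 2 and 11 without SCI vehicle library 4. With the term for the sets of libraries the count was 21 and the median 0.23, and with library totals it was 1 and 0.09. Without the filter the count was 10 and with voom 37. The 4.05% of all genes belongs to the main model, and the shares under these alternatives are not given here.

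At 28 days Rpl10 and Rpl12 led the large subunit. Rpl10, one of the last proteins to join the large subunit, had 236, 217, 209 and 239.5 CPM in sham and 283, 302 and 332 CPM in SCI vehicle libraries, and rose by 0.44 ± 0.09 (adjusted p = 0.00083). The groups were apart, although only 7.87% of the windows of Rpl10 are its own. Rpl12, at the base of the P stalk, had 154, 123, 119 and 125 CPM in sham and 149, 179.6 and 199.7 CPM in SCI vehicle libraries. One sham library lay within the SCI range, and the rise was 0.44 ± 0.10 (adjusted p = 0.0038). Rpl10a rose by 0.31 ± 0.08 from 121 ± 6.70 to 151 ± 14.2 CPM (adjusted p = 0.012), a call lost without sham library 4 (0.0551). Rplp0 rose by 0.28 ± 0.08 from 552 ± 36.0 to 669 ± 52.7 CPM (adjusted p = 0.015), a call lost without sham library 3 (0.0775) or 4 (0.0562). Its partners in the P stalk did not pass: the log2 fold change was 0.15 ± 0.08 for Rplp1 (adjusted p = 0.30) and 0.08 ± 0.10 for Rplp2 (adjusted p = 0.73). Rpl22 (0.18 ± 0.08, adjusted p = 0.17) and Rpl38 (0.17 ± 0.15, adjusted p = 0.57), among the highest of the set at 7 days, did not pass either. The smallest values of the large subunit were those of Rpl36 (0.03), Rpl19 (0.06) and Rpl28 (0.07), with -0.07, -0.04 and -0.02 under library totals. That scaling moved the median of all genes to -0.10, and relative to it the 3 genes kept 0.03, 0.06 and 0.07.

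In the small subunit at 28 days, Rps4x, encoded on the X chromosome, had 222, 194, 205 and 214 CPM in sham and 250.4, 275 and 300.3 CPM in SCI vehicle libraries. All SCI libraries were above sham, and it rose by 0.41 ± 0.07 (adjusted p = 0.00044). It was the gene still called with library totals. Rps15a rose by 0.28 ± 0.07 from 81.6 ± 5.70 to 99.2 ± 7.37 CPM (adjusted p = 0.011) and Rps25 by 0.26 ± 0.07 from 199.9 ± 15.7 to 239.7 ± 16.1 CPM (adjusted p = 0.012). Both calls were lost without sham library 3 (adjusted p = 0.0685 for Rps15a and 0.0684 for Rps25). Rpsa rose by 0.26 ± 0.08 from 339 ± 18.1 to 407 ± 24.2 CPM (adjusted p = 0.044), but leaving out any 1 of the 4 sham libraries (0.0522 to 0.152) or any of SCI vehicle libraries 1, 2, 4 or 5 (0.0566 to 0.0894) took the call away. Rps27a (0.29 ± 0.11, adjusted p = 0.089) and Rps6 (0.10 ± 0.08, adjusted p = 0.52) did not pass. Rps29, a zinc-binding protein of the small subunit, was the one gene of the 73 below 0, with 60.0, 60.1, 58.4 and 56.1 CPM in sham and 47.7, 52.3 and 69.5 CPM in SCI vehicle libraries. The sham values lay inside the SCI range, and the change was -0.06 ± 0.20 (adjusted p = 0.91). Rps13 (0.02) and Rps20 (0.07) were the next smallest. With library totals they were at -0.08 and -0.02, which is 0.02 and 0.07 above the median of all genes under that scaling.

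The change from 7 to 28 days was itself tested. The effect of SCI was smaller at 28 than at 7 days in 42 of the 73 genes and larger in none (edgeR, interaction of surgery and time), where 12.3% of all genes had a lower and 11.6% a higher effect at 28 days. The 42 were 24 large and 18 small subunit genes, with a median difference over all 73 of -0.37 on the log2 scale, against 0.03 over all genes. The smallest p-values belonged to Rpl22 (-0.78 ± 0.12, adjusted p = 1.2e-05), Rps19 (-0.74 ± 0.12, adjusted p = 5.3e-05) and Rps25 (-0.54 ± 0.10, adjusted p = 0.00012). Rplp2 differed by -0.79 ± 0.15 (adjusted p = 0.00019) and Rpl38 by -0.83 ± 0.22 (adjusted p = 0.0057). Rplp0 did not (-0.05 ± 0.11, 95% interval -0.25 to 0.16, adjusted p = 0.79), and nor did Rplp1 (-0.20 ± 0.12, -0.43 to 0.02, adjusted p = 0.21). Rps2 alone had a positive difference, of 0.22 ± 0.10 (adjusted p = 0.12). The value was -0.27 with library totals, where the median of all genes was -0.46, and 0.26 with voom, which called it. Each time has its own sham libraries, and across the 73 genes the fold changes at the 2 times had a Pearson's r of 0.25. With the term for the sets of libraries 36 genes had a smaller effect at 28 days, and without 1 library at a time 35 to 48. With library totals 71 genes had one, with a median of -0.88 against -0.46 over all genes. The 12.3% of all genes belongs to the main model, and the shares under these alternatives are not given here.

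Large and small subunit genes were compared within each library. The mean log2 CPM of the 44 large subunit genes was 6.77 ± 0.10 in sham, 7.34 ± 0.15 in SCI vehicle and 7.41 ± 0.14 in SCI boldine libraries at 7 days (SD, n = 4, 6 and 6). That of the 29 small subunit genes was 7.01 ± 0.08, 7.59 ± 0.14 and 7.63 ± 0.15. At 28 days the means were 6.89 ± 0.06, 7.10 ± 0.10 and 7.06 ± 0.08 for the large, and 7.14 ± 0.06, 7.31 ± 0.10 and 7.28 ± 0.08 for the small subunit. Both means were higher after SCI at each time, and at 7 days every SCI library lay above every sham library in both. The difference of large minus small within a library stayed between -0.27 and -0.19 in all 32 libraries, while the level itself varied by 0.58 between the 7-day sham and SCI vehicle groups. Median fold changes were 0.58 for the large and 0.61 for the small subunit at 7 days, and 0.19 for each at 28 days. For the difference between the times the medians were -0.37 and -0.43. At 28 days large minus small was -0.265 to -0.225 in sham and -0.219 to -0.201 in SCI vehicle libraries, which did not overlap. SCI boldine libraries at 28 days, at -0.227 to -0.203, overlapped sham. At 7 days sham (-0.255 to -0.209) and SCI vehicle libraries (-0.269 to -0.219) overlapped, with means of -0.232 and -0.241. No p is given, since the genes were chosen with earlier results known.

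**Figure D4:**
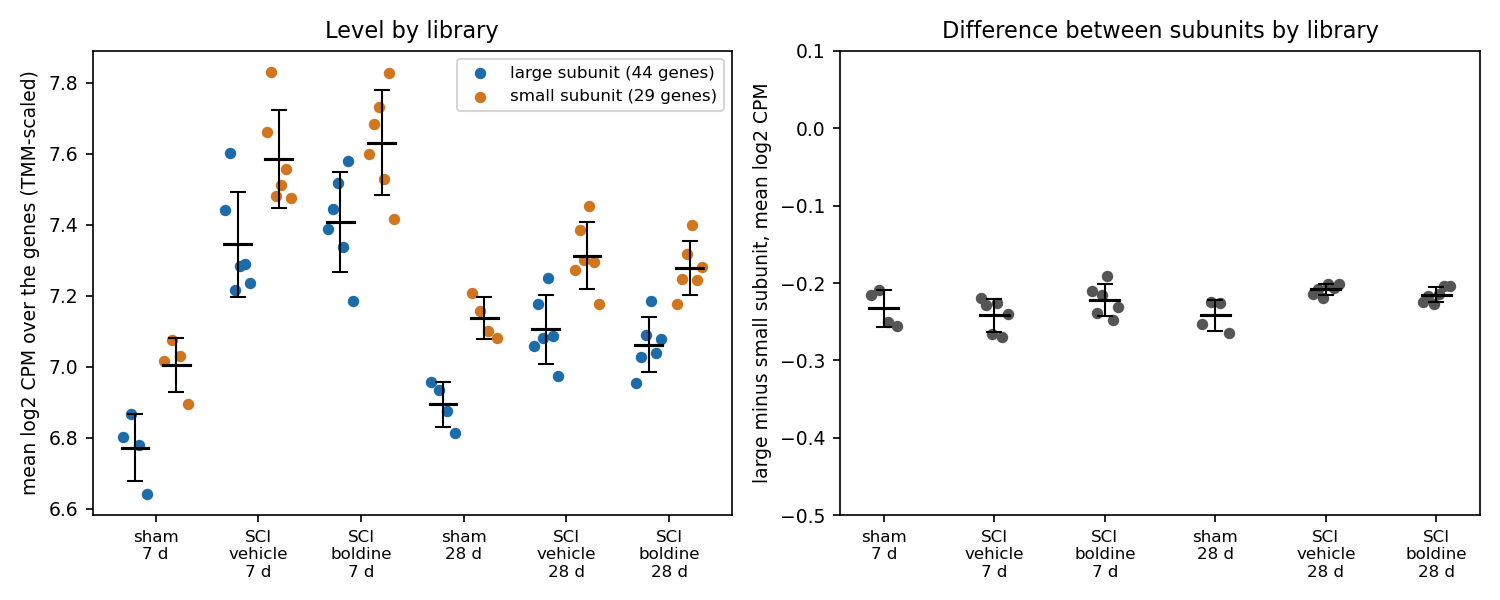
Left, mean log2 CPM of the 44 large (blue) and 29 small (orange) subunit genes in each library, by group, with group mean and SD. Right, large minus small in each library. The means of both subunits are higher in 7-day SCI than in 7-day sham libraries, and the difference between them stays between -0.27 and -0.19.

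Summed over the genes, the large subunit had 6387 ± 309 CPM in sham and 9388 ± 849 in SCI vehicle libraries at 7 days, and the small subunit 4417 ± 175 and 6320 ± 583 CPM. The ratio of the sums was 1.45 ± 0.0316 in sham and 1.49 ± 0.00954 in SCI vehicle libraries. On the log2 scale it ran from 0.50 to 0.58 in sham and from 0.56 to 0.58 in SCI vehicle libraries, which overlapped. At 28 days the ratio was 1.44 ± 0.00685 and 1.48 ± 0.0104. Its log2 values were 0.51 to 0.53 in sham, 0.54 to 0.57 in SCI vehicle and 0.55 to 0.58 in SCI boldine libraries, so sham did not overlap the others. The size of this difference, 0.04, was small beside the change of either subunit, and at 7 days its sign turned without Rps2 (-0.03). The sum weights genes by level, and Rps2 has a large share of the small subunit's sum.

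Boldine gave no call among the 73 genes at either time. Against SCI vehicle, edgeR, DESeq2 and voom each called 0 of 73, where edgeR called 0.00669% of all genes higher and 0.0267% lower at 7 days, and 0.0134% and 0.00669% at 28 days. At an unadjusted p under 0.05 edgeR had 0 of the 73 at 7 days and 1 at 28 days, against 1434 and 1430 of all genes. The median log2 fold change was 0.05 at 7 days, with 63 values above and 10 below 0, and -0.04 at 28 days, with 13 above and 60 below. At 28 days the term for the sets of libraries gave 0 calls and a median of 0.03, and leaving out SCI boldine library 6 gave 0 calls and -0.02. Rpl17, a protein near the peptide exit, had the smallest p at 7 days, with 179, 197 and 234 CPM as lowest, median and highest in SCI vehicle and 197, 218 and 239 CPM in SCI boldine libraries. The ranges overlapped, and the difference was 0.12 ± 0.07 (95% interval -0.01 to 0.25, adjusted p = 0.60). Rpl13a differed by 0.35 (-0.12 to 0.81), Rps25 by -0.05 (-0.17 to 0.07) and Rps20 by -0.05 (-0.22 to 0.11), none of which passed. At 28 days Rpl34 had 91.0, 97.1 and 108 CPM in SCI vehicle and 82.9, 87.6 and 98.4 CPM in SCI boldine libraries. They overlapped too, with a difference of -0.14 ± 0.07 (-0.27 to -0.01, adjusted p = 0.51). Rpl27a differed by -0.14 (-0.32 to 0.03), Rpl27 by 0.05 (-0.10 to 0.21) and Rps19 by 0.05 (-0.10 to 0.21). Intervals reached a size of 0.5 for 3 of the 73 genes at 7 days and 1 at 28 days, so differences of that size lie outside the intervals of the others. The test does not show that the treatments act alike.

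Set against the same sham libraries that the vehicle comparison used, SCI boldine muscle had 72 of 73 genes higher at 7 days and none lower (edgeR), where 21.7% of all genes were called higher and 22.5% lower. The one not called was Rps2 (-0.14 ± 0.07, adjusted p = 0.13), which had 0.31 with library totals. Relative to the median of all genes it was at -0.13 under both scalings. The median was 0.67, or 1.12 with library totals, and 67 genes had no overlap with sham, against 15.6% of all genes. The smallest p-values were those of Rpl22 (0.95 ± 0.08, adjusted p = 8.8e-11), Rpl10a (0.92 ± 0.08, 1.4e-10) and Rps25 (0.75 ± 0.07, 1.9e-10). The values for vehicle stand above and rest on the same sham libraries. At 28 days 18 genes were higher (13 large, 5 small) and none lower, against 8.79 and 9.35% of all genes, with a median of 0.15. They were led by Rps4x (0.39 ± 0.07, adjusted p = 0.00031), Rpl12 (0.48 ± 0.10, 0.00079) and Rpl10 (0.38 ± 0.08, 0.0016). In 29 genes the groups did not overlap, against 8.32% of all genes. The count was 9 without sham library 3 and 10 without SCI boldine library 3, and it was 19 without SCI boldine library 6. With the term for the sets of libraries it was 2 and the median 0.28, with library totals 2 and 0.06, without the filter 6 and with voom 31. The shares of all genes called under these alternatives are not given here. All SCI boldine libraries at 28 days are in one set and all sham libraries in the other, so this comparison leans on the SCI vehicle libraries to separate set from treatment.

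Genes that make ribosomes rose with the ribosomal proteins at 7 days. Of 37 ribosome biogenesis genes 30 rose and none fell, with a median log2 fold change of 0.63. Over all genes 21.5% were called higher and 23.1% lower at 7 days. Ncl, or nucleolin, which binds the ribosomal RNA precursor, rose by 1.11 from 184 ± 14.8 to 396 ± 45.3 CPM (adjusted p = 1.2e-10). Wdr43 rose by 1.16 (adjusted p = 3.4e-09) and Tsr1, a factor of small subunit maturation, by 1.04 (adjusted p = 1.4e-09). Of 12 genes of the RNA polymerase I machinery, which transcribes ribosomal RNA, 8 rose and none fell, with a median of 0.41. They include the subunit genes Polr1d (0.85, adjusted p = 6.2e-09), Polr1b (0.76, 1.8e-08) and Polr1e (1.19, 3.6e-05). At 28 days none of the biogenesis genes was called higher and 1, Pno1, fell (-0.23, adjusted p = 0.018), with no call under the term for the sets of libraries. None of the RNA polymerase I genes was called in either direction, where 4.05% of all genes were called higher and 4.88% lower. The SCI effect was smaller at 28 than at 7 days in 24 of the 37 biogenesis genes, where 12.3% of all genes had a lower effect at 28 days.

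Of 19 genes that control mTORC1 and TOP messenger RNAs, 9 rose and 1 fell at 7 days, with a median of 0.31. At that time 21.5% of all genes were called higher and 23.1% lower. Myc, a transcription factor known to drive ribosome synthesis, rose by 3.10 from 2.45 ± 1.12 to 21.2 ± 8.33 CPM (adjusted p = 9e-10), and it was also higher at 28 days by 1.51 (adjusted p = 0.0015). The kinase genes Akt1 and Akt2 rose by 1.88 (adjusted p = 5.3e-09) and 0.68 (4.8e-10). Larp1 rose by 0.38 at 7 days (adjusted p = 0.0012) and fell by 0.30 at 28 days (adjusted p = 0.038). The 28-day call was lost with the size factors of DESeq2 (0.0501) and with the term for the sets of libraries (0.0570). Sesn1, a stress protein that restrains mTORC1, fell by 0.69 at 7 days (adjusted p = 0.0011). Of 20 elongation factors and other TOP messenger RNAs, 17 rose and 1 fell, with a median of 0.44. They were led by Nap1l1, a histone chaperone (1.27, adjusted p = 1.7e-10), and the initiation factor subunits Eif3l (0.66, 7.4e-09) and Eif3e (0.57, 1.5e-08). The gene that fell was Cnbp (-0.22, adjusted p = 0.027). With library totals none of these 39 genes was called lower at 7 days. At 28 days 3 of the 20 rose, Eef1a1 (0.80, adjusted p = 0.0036), Naca (0.35, 0.016) and Eif4b (0.28, 0.018), where 4.05% of all genes were called higher. With library totals Eef1a1 alone was called, and with the term for the sets of libraries the 3 calls held.

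Ribosomal protein genes that the symbols left out had mixed values. Of 12 listed, 9 were tested and 4 rose at 7 days, Rps3a1 (0.54, adjusted p = 2e-06), Fau (0.56, 9.6e-07), Rack1 (0.65, 6.3e-09) and Rps27l (1.10, 2.8e-11). Rack1, a scaffold on the small subunit, was also higher at 28 days by 0.23 (adjusted p = 0.035), a call lost with library totals (0.479). Rpl22l1, the paralogue of Rpl22, had 24.4 ± 3.86 CPM in sham and 24.7 ± 4.64 CPM in SCI vehicle muscle at 7 days (0.02, adjusted p = 0.91). Proteins of the mitochondrial ribosome did not share the pattern: 19 of 77 genes were called higher and 23 lower at 7 days, with a median of -0.04, and none higher and 14 lower at 28 days, with a median of -0.14. Over all genes 21.5% were called higher and 23.1% lower at 7 days, and 4.05% and 4.88% at 28 days. With library totals the split of the 77 was 46 higher and 4 lower at 7 days, around an all-gene median of 0.37, and 0 and 27 at 28 days, around -0.10. With the term for the sets of libraries 6 were lower at 28 days. Mrpl42, the gene with the smallest p, fell by 0.73 from 125 ± 7.35 to 75.1 ± 8.54 CPM (adjusted p = 8.6e-09). The constitutive proteasome, which takes proteins apart, had 33 of 34 tested subunits higher at 7 days, with a median of 0.79. At 28 days it had 1, where 4.05% of all genes were called higher. Psmd2 was its leading gene (1.45, adjusted p = 2.1e-11).

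**Figure D5:**
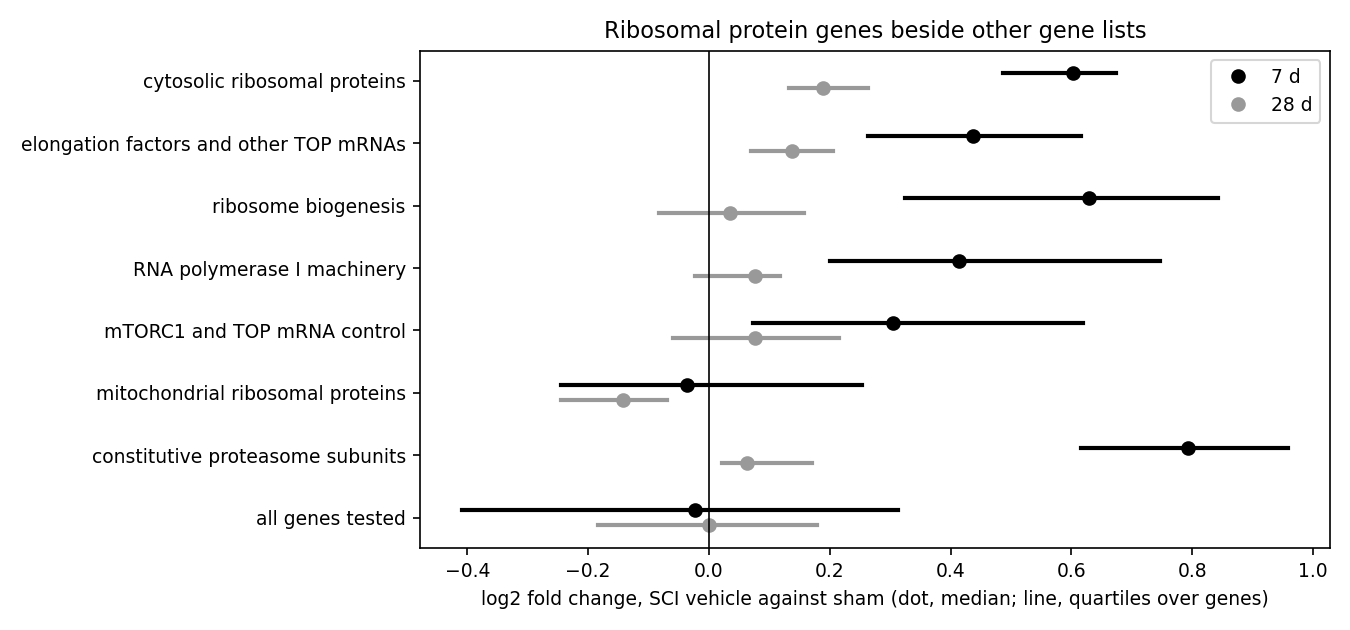
Median log2 fold change of SCI vehicle against sham, with the quartiles, for the 73 ribosomal protein genes as a set, lists of other genes and all genes tested, at 7 and at 28 days. At 7 days the median of the ribosomal protein genes (0.60) lies beside that of ribosome biogenesis (0.63), and the mitochondrial ribosomal proteins (-0.04) lie beside all genes (-0.02).

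Marker lists of cell types gave mixed values, where 21.5% of all genes were called higher and 23.1% lower at 7 days. At 7 days 0 of 9 fibre markers rose and 8 fell, led by Acta1 (-1.72, adjusted p = 2.2e-10). Of 10 macrophage markers 1, Cd68, rose (1.74, adjusted p = 0.0024) from 1.27 ± 0.687 to 4.30 ± 2.41 CPM, and the summed level was 51.3 to 87.0 CPM in sham and 36.7 to 71.1 CPM in SCI vehicle libraries. Of 4 tested satellite cell markers 2 rose and 1 fell, with sums of 24.8 to 37.7 and 51.3 to 62.0 CPM, and Cdh15 rose by 1.22 (adjusted p = 7.3e-08). Endothelial markers gave 1 rise and 4 falls of 6, fibro-adipogenic progenitor markers 0 and 4 of 6, Schwann cell markers 0 and 3 of 5 and adipocyte markers 0 and 4 of 4. Of 2 tested neutrophil markers 1 fell, of 5 erythrocyte markers none was called, and no lymphocyte marker reached the filter. The lymphocyte sum was at most 2.36 CPM in any library, and no marker of any list was at 0 in all libraries. With library totals the falls were 6 of 9 for fibre, 2 of 6 for endothelial and 3 of 6 for progenitor markers, and none for satellite cell and neutrophil markers. The part of these cells in the ribosomal protein result was not tested.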

How the data were processed

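The deposited values are raw counts per gene that the authors made. Per the submitters' processing notes, FastQC, Trim Galore, cutadapt, STAR and mm10 were used, with no versions; how reads were counted, on which strand and over which gene models is not given in the sources used here. Symbols came from GENCODE release M21 (55227 of 55487 identifiers named, 116 set aside for a shared symbol). Genes passed filterByExpr (minimum count 10, minimum total 15), which left 14955. One edgeR 4.0.16 quasi-likelihood model (R 4.3.3) with TMM scaling and 6 group means covered all 32 libraries, with two-sided p-values and Benjamini-Hochberg adjustment over all genes. SE is the fold change over the square root of F, and 95% intervals are 1.96 SE either way. Log2 CPM carry a prior count of 2. Since the labels do not say what the animals shared, p-values speak only to the spread between libraries, which may be technical.

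The genes, lists and tests were chosen with earlier results of these data known. Named genes were the 4 largest and 4 smallest changes in each subunit at 7 days, 3 and 3 at 28 days, the smallest p-values elsewhere (3 per list or direction, and 2 per direction where none was called), and 10 fixed genes (Rplp0, Rplp1, Rplp2, Rpsa, Rps6, Rps27a, Rpl22, Rpl38, Rpl10a and Rps25). Other genes named were chosen after their values were seen. Alternatives were DESeq2 1.42.0 and its size factors, library totals, no filter, voom of limma 3.58.1, a replicate block, a term for the sets of libraries and leaving out each library. The genes with few shared windows, the ratio without Rps2 and the sets term for the gene lists were added after seeing the data. The model was tested on simulated data. The counting floor is 3 counts: a count of 0 allows up to 3 counts, or 0.212 to 0.302 CPM, and covers counting error only. Shared windows and overlaps came from GENCODE transcripts, and start sites from RefSeq. Some single-gene values are not reported here.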

Additional observations from a re-analysis of the deposited data

Results flagged for a closer look

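Chance alone marks about 1 in 20 groups as holding a library far from the others. Over 252 groups, of which 36 named genes gave the most, 14 were marked. SCI vehicle library 2 at 7 days was the highest of its group in Rps24 (217 CPM, others 179 to 187), Rps27a (239, others 147 to 174), Rplp0 (756, others 619 to 661) and Rpl10a (259.7, others 185 to 211). Sham library 4 at 7 days was the lowest in Rplp0 (516, others 533 to 536) and Rpl10a (112, others 117 to 118). At 28 days SCI boldine library 6, whose code carries the letter of the SCI vehicle libraries, was the lowest in Rplp2 (83.7, others 99.0 to 103) and Rpl11 (114, others 131 to 139), and SCI boldine library 3 the highest in Rps18 (196, others 165 to 169.9) and Rpl27 (128, others 104 to 112). SCI boldine library 1 was the lowest in Rps13 (83.0, others 91.7 to 95.9) and SCI vehicle library 4 the highest in Rpl27a (111, others 85.5 to 94.7). SCI vehicle library 5 at 28 days had the lowest log2 ratio of summed large to small subunit CPM (0.54, others 0.57), and SCI boldine library 3 at 7 days the highest sum over ribosomal protein pseudogenes (93.5 CPM, others 44.5 to 60.0).

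The effect of SCI differed between 28 and 7 days in 42 of the 73 genes, by edgeR's test of the difference itself. In all 42 it was smaller at 28 days, where 12.3% of all genes had a lower and 11.6% a higher effect at 28 days.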

How the results depend on the processing

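The 7-day result kept its direction under the alternatives run, with 69 to 73 genes higher (67 to 70 without 1 library). The 28-day count was 8 to 23 without 1 library, 10 without the filter, 37 with voom, 1 with library totals and 26 with DESeq2. For boldine against sham at 28 days it was 9 to 19, 6, 31, 2 and 19, and 2 with the sets term (median 0.28). Shares of all genes called under the alternatives, the replicate block below included, are not given here, so the counts cannot be set against them. Library totals moved the median of all genes to 0.37 (7 days), -0.10 (28 days), 0.44 and -0.10 (boldine against sham) and -0.46 (difference of times). They moved the median of the 73 to 1.00, 0.091, 1.12, 0.064 and -0.88, so relative to all genes it was 0.64, 0.19, 0.68, 0.17 and -0.42, and 71 genes had a smaller effect at 28 days. With library totals Rps2 turned to 0.27, 0.31 (boldine) and -0.27 (times), and Rps25 for boldine against vehicle at 7 days to 0.011. At 28 days Rpl36 turned to -0.071, Rpl19 to -0.041, Rpl28 to -0.024, Rps13 to -0.076, Rps20 to -0.024 and Rplp2 to -0.022. Voom called 1 gene, Rps2, larger at 28 days. With the sets term Rps29 turned to 0.016 for vehicle and, for boldine against sham, Rps29 to 0.077, Rps20 to 0.16 and Rpl19 to 0.17. Without 1 library at 28 days Rpl36 ran from -0.015 to 0.058, Rpl19 from -0.071 to 0.13 (boldine -0.21 to 0.0080) and Rps13 from -0.033 to 0.076. The median of large minus small genes ran from -0.036 to -0.0018 (7 days), -0.0027 to 0.021 (28 days), -0.016 to 0.0044 (boldine against vehicle, 28 days), -0.048 to 0.0036 and -0.015 to 0.027 (boldine against sham) and 0.036 to 0.082 (times), and was 0.033 with the sets term for boldine against sham at 28 days. The log2 ratio of sums differed by -0.0092 as mean of log values, 0.013 per kilobase and -0.035 without Rps2 at 7 days, and by 0.031 per kilobase and 0.029 without Rps2 at 28 days. For boldine against vehicle at 7 days it was 0.019 as mean of log values, and against sham 0.0098, 0.018 per kilobase and -0.036 without Rps2 at 7 days, and 0.027 as mean of log values and 0.029 per kilobase at 28 days. The cause of these changes was not tested.

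Replicate numbers were not treated as pairs. Over 28 pairs of libraries with the same number, the correlation of deviations was -0.21 to 0.26, and it was over 0.1 in 2. The library of the same number was the best match in 3. These values cannot show whether animals shared a cage or a day of surgery. With a replicate block the counts were 70 at 7 days, 30 at 28 days and 24 for boldine against sham at 28 days, where large minus small was 0.014, and Rps29 at 28 days was 0.00011. Depth limits Rpl13a most, at 1.96 CPM.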
